A study of Homo sapiens with 6 samples.

Results

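The proteasome genes of MDA-MB-231 cells were examined in cells that overexpressed SRPK2 and in their empty-vector controls. Members were taken from the table of read counts as the protein-coding genes whose symbol starts with PSMA to PSMG followed by a number, with at least 60 reads over the 6 libraries. This gave 48 of 29710 genes. The symbol pattern matched 50 genes, and the other 2, PSMA8 (the germ-cell alpha subunit) and PSMB11 (the thymus-specific beta subunit), had 1 read each in all. Of the 48 members, 31 were constitutive subunits, 5 were the interferon-inducible catalytic and activator subunits PSMB8, PSMB9, PSMB10, PSME1 and PSME2, and the rest were assembly chaperones, other regulators and 2 genes that share only the symbol pattern. All 48 passed the filter on low counts.

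MDA-MB-231 is an established line of triple-negative breast cancer. The control group held 3 biological replicates of cells with the empty vector, and the other group 3 biological replicates of cells overexpressing FLAG-tagged SRPK2, a kinase of serine- and arginine-rich splicing factors. No further treatment or genotype is in the labels, and whether the constructs were stable or transient, or the lines clonal, is not given in the sources used here. Libraries were strand-specific and read in pairs, and held 31140537 to 36908878 reads assigned to genes. SRPK2 itself read 36.7 to 41.1 CPM (read counts scaled to a common library size and composition) in the controls and 213 to 294 CPM in the other group, a log2 fold change of 2.71. Of the markers of the line, VIM read 3279 to 3651 CPM, CDH1 2.28 to 2.95 CPM, and ESR1 and PGR at most 2 and 4 reads in a library, while the low markers ERBB2 and EPCAM were present at 46.2 to 52.1 and 13.1 to 15.5 CPM. Of 7 listed leukocyte markers, which would mark cells with constitutive immunoproteasomes, PTPRC never passed 9 reads per library and CD53 never passed 2. SPI1 never passed 3 reads and ITGAL never passed 2. LAPTM5 was present at 64.8 to 75.5 CPM, CD14 at 5.14 to 6.12 CPM and CORO1A at 0.882 to 1.43 CPM. The summed level of the list was 77.8 to 82.1 CPM in the controls and 71.8 to 76.4 CPM with SRPK2, nearly all of it LAPTM5.

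The proteasome is the protease that degrades ubiquitin-tagged proteins in the cytosol and nucleus. Its 20S core is a stack of rings of alpha subunits (PSMA genes), which form the gate, and beta subunits (PSMB genes), of which PSMB5, PSMB6 and PSMB7 carry the active sites. The 19S cap binds and unfolds substrates through a ring of ATPases (PSMC genes) and non-ATPase subunits (most PSMD genes). Under interferon, PSMB8, PSMB9 and PSMB10 replace PSMB5, PSMB6 and PSMB7 in newly built cores to give the immunoproteasome, and PSME1 and PSME2 form the PA28 activator. These forms are known for producing peptides for MHC class I, and cancer cells can carry them without added interferon.

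Proteasome genes together took 0.850% to 0.951% of the reads of a library. In the deposited FPKM values, which divide reads by gene length and library size, the 4 highest mean levels were those of core subunits. PSMA7, an alpha subunit, had the highest mean level, with 270, 301 and 277 FPKM in the controls and 253, 285 and 236 FPKM with SRPK2. PSMB7 followed at a mean of 194 FPKM and PSMB3 at 153 FPKM. The groups overlapped for PSMA7, whose log2 fold change was -0.17 (SE 0.08, edgeR adjusted p = 0.301, by the Benjamini-Hochberg method over all tested genes).

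By mean FPKM over the 6 libraries, the alpha subunits ranged from 0.0900 (PSMA2, whose reads are described further on) to 270, the noncatalytic beta subunits ranged from 58.2 to 153, the catalytic ones from 115 to 194, the ATPases from 22.0 to 121 and the non-ATPases of the cap from 10.9 to 129. The cap subunit PSMD2, a scaffold that receives ubiquitin carriers, was the most abundant of the cap. The assembly chaperones of the core, PSMG1 to PSMG4, had 2.38 to 38.3 FPKM. These levels depend on the exons each gene was given: the length implied by reads and FPKM was 0.907 to 3.36 times the merged exon length in GENCODE 29 (median 1.1, 47 members). PSMD1 had the highest of these ratios, so its 10.9 FPKM would be higher on the shorter model.

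**Figure D1:**
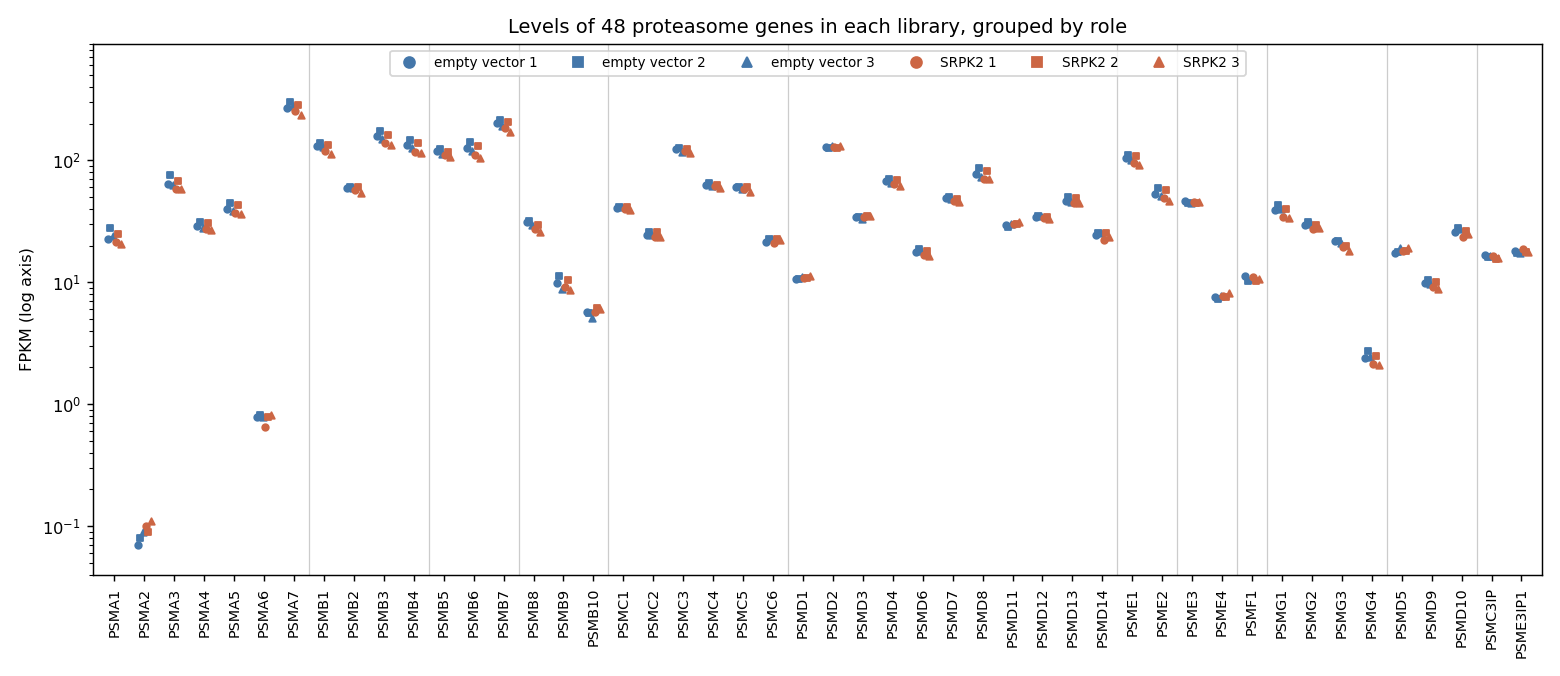
Deposited FPKM (log axis) of each of the 48 proteasome genes, grouped by role from left to right, with 1 point per library (blue, empty vector; orange, SRPK2; marker shape, replicate). Core subunits reach 270 FPKM in the mean, PSMB9 and PSMB10 lie near 9.68 and 5.72 FPKM, and PSMA6 and PSMA2 lie far below the other subunits at 0.772 and 0.0900 FPKM.

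The interferon-inducible subunits were expressed in both groups. Over the 6 libraries, PSMB8 (LMP7), the immunoproteasome counterpart of PSMB5, had a mean of 29.2 FPKM, PSMB9 (LMP2), the counterpart of PSMB6, 9.68 FPKM, and PSMB10 (MECL-1), the counterpart of PSMB7, 5.72 FPKM. Their constitutive counterparts stood at 115, 122 and 194 FPKM. PSMB8 therefore made up 20.5% to 20.7% of the FPKM of PSMB8 and PSMB5 together in the 3 controls. PSMB9 made up 6.91% to 7.38% of its pair and PSMB10 2.53% to 2.77% of its pair. The activator subunits PSME1 and PSME2 were at 102 and 52.7 FPKM, above the nuclear activator subunit PSME3 (PA28 gamma) at 45.1 FPKM and PSME4 (PA200) at 7.67 FPKM. RNA levels do not give the share of assembled immunoproteasomes.

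PSMB8 (32840717 to 32844703, minus strand) and PSMB9 (32844136 to 32859585, plus strand) lie side by side on chromosome 6 in the MHC class II region (GRCh38, GENCODE 29). Their annotated 5′ ends overlap on opposite strands, and PSMB9 shares 5.70% of its exonic bases with the long noncoding RNA PSMB8-AS1. How the counting treated strand is not given in the sources used here, and reads in these overlaps could be assigned to either gene. PSME1 (chromosome 14, 24136158 to 24138967, plus strand) and PSME2 (24143362 to 24147570, minus strand) are neighbours as well, and PSMB10 (67934502 to 67937087, minus strand) is a gene of chromosome 16.

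Interferon signalling reaches such genes through interferon-stimulated response elements (ISRE), bound by IRF factors, and gamma-activated sites (GAS). The 250 bases before each RefSeq start (GRCh38.p14, 42 of 48 members with an entry, 53 windows) were searched on both strands for an ISRE core, written as GAAANN followed directly by GAAA, and for TTCNNNGAA as the GAS. The ISRE core was in 5 of the 53 windows (9.43%), against 3.02% of all 35116 windows, and the GAS letters were in 6 (11.3%, against 6.57%). PSMB10, PSME2 and PSMG4 held the same 10 letters close to the start. These 3 sites are shown with those of PSMB8 and PSMB4, the matched letters in capitals, each read 5′ to 3′ on the gene's strand.

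PSMB10: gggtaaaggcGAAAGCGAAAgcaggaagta

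PSME2: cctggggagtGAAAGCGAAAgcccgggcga

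PSMG4: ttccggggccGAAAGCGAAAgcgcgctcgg

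PSMB4: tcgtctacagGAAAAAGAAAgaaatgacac

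PSMB8: aactgtccttTTCTCGGAAaaggcaggggg

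The PSMB10 site (chr16:67936852-67936881, minus strand) has its core at -21 to -12 from the start, that of PSME2 (chr14:24146619-24146648, minus strand) at -28 to -19 and that of PSMG4 (chr6:3258904-3258933, plus strand) at -33 to -24. The PSMB4 site (chr1:151399495-151399524, plus strand) lies at -68 to -59. The PSMB8 site (chr6:32844093-32844122, minus strand) is a GAS match at -65 to -57 of the second listed start. The other ISRE core was in PSMA4. The other GAS matches were in PSMA2, PSMB5, PSMC4, PSMD3 and PSME3, all outside the inducible set. The PSMB9 window held neither set of letters. A match is a description of the letters, and factor binding was not measured here. The antioxidant response element core TGACNNNGC, to which NFE2L1 and NFE2L2 bind, was in 13 of the 53 windows (24.5%, against 10.9% of all windows), and CCAAT in 22 (41.5%, against 32%).

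With SRPK2, no proteasome gene rose or fell past the threshold. By edgeR, with adjustment over all genes, 0 of 48 members passed at 0.05, where 75 of 16515 tested genes (0.454%) did. DESeq2 and limma-voom also called 0 members, where they called 0.979% and 0.412% of the genes they tested. The smallest adjusted p of a member was 0.165, for PSMG3. At an unadjusted p under 0.05 in the edgeR test there were 8 members (16.7%), against 17.2% of all tested genes in either direction. All 8 were lower with SRPK2, where 8.1% of all tested genes were lower at that p.

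Most members nonetheless had a log2 fold change below 0: 42 of 48 (87.5%), against 48.8% of all tested genes. The median over members was -0.11, and over all tested genes 0.00. In bulk libraries, fewer expressing cells and less RNA per cell cannot be told apart. The values were small, and the members moved together from library to library, so that their count is not a count of independent changes. Groups did not overlap for 5 members that were lower with SRPK2 (10.4%, against 8.69% of all tested genes), namely PSMD2, PSMD12, PSMG1, PSMG3 and PSMC3IP, and for 1 that was higher, PSMA2 (2.08%, against 11.5%).

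The constitutive subunits and the interferon-inducible ones had similar values. The median log2 fold change was -0.09 over the 31 constitutive subunits (28 below 0) and -0.13 over PSMB8, PSMB9, PSMB10, PSME1 and PSME2 (4 of 5 below 0). Without control replicate 2 or SRPK2 replicate 3 both medians were -0.06, and without SRPK2 replicate 2 they were -0.14 and -0.21. With gene length corrected for in every library, the medians were -0.08 and -0.08. No test is given for these medians, since the members were chosen as a group and share their libraries.

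**Figure D2:**
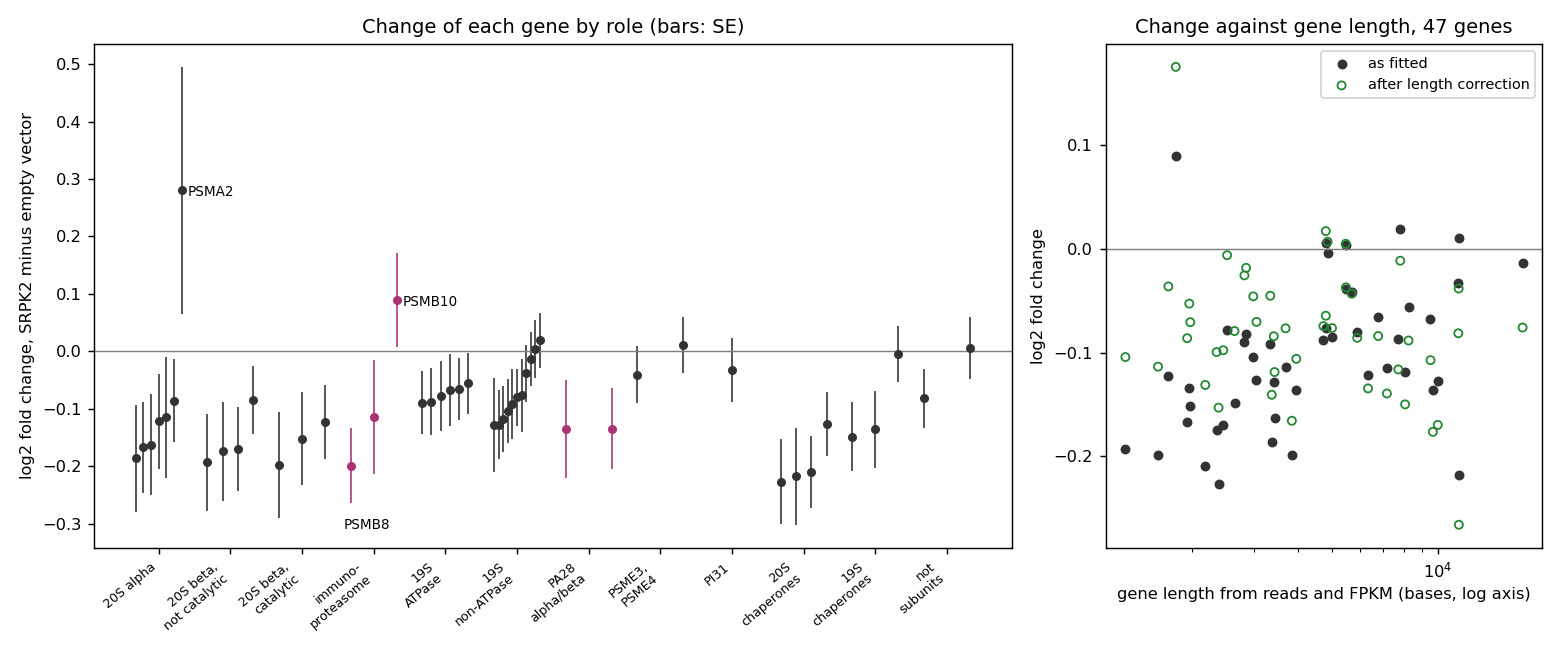
Left, log2 fold change (SRPK2 minus empty vector) of each proteasome gene with its SE, by role, with the 5 interferon-inducible genes in purple. Right, the same values against gene length (log axis) for 47 genes as fitted (black) and after the length correction (open green). Of the 48 values, 42 lie below 0 and none passed the threshold; PSMA2 and PSMB10 lie above 0 as deposited.

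Among the interferon-inducible subunits, PSMB8 had the largest absolute value. It read 122, 125 and 111 CPM in the controls and 105, 112 and 95.9 CPM with SRPK2, and SRPK2 replicate 2 lay just above control replicate 3. Its log2 fold change was -0.20 (SE 0.07, edgeR adjusted p = 0.196).

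PSMB9 read 36.7, 42.5 and 32.1 CPM in the controls and 33.6, 38.4 and 30.7 CPM with SRPK2. The groups overlapped, with replicate 2 highest in both (log2 fold change -0.11, SE 0.10, edgeR adjusted p = 0.559). The value of PSMB9 was -0.0090 without control replicate 2, -0.04 without SRPK2 replicate 3, and -0.21 without control replicate 3 or SRPK2 replicate 2. PSMB10 read 10.4, 10.3 and 9.10 CPM in the controls and 10.2, 11.1 and 10.4 CPM with SRPK2, and was the only inducible subunit with a value above 0 (log2 fold change 0.09, SE 0.08, edgeR adjusted p = 0.588). The sum of its reads and those of an overlapping gene had a value of -0.02. The added reads can also come from exons outside PSMB10, as described further on.

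Both PA28 genes had like values. PSME1 read 207, 223 and 197 CPM in the controls and 186, 211 and 174 CPM with SRPK2 (log2 fold change -0.13, SE 0.07, edgeR adjusted p = 0.342). PSME2 read 213, 240 and 201 CPM in the controls and 194, 225 and 177 CPM with SRPK2 (log2 fold change -0.14, SE 0.08, edgeR adjusted p = 0.414). For both genes the groups overlapped, and control replicate 2 was the highest library and SRPK2 replicate 3 the lowest. Without either of these libraries the value of PSME2 was -0.06, and without SRPK2 replicate 2 it was -0.24. Those of PSME1 were -0.09 without control replicate 2, -0.08 without SRPK2 replicate 3 and -0.21 without SRPK2 replicate 2.

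The constitutive catalytic subunits had the same highest and lowest libraries. PSMB5, the chymotrypsin-like site, read 209, 216 and 191 CPM in the controls and 190, 201 and 174 CPM with SRPK2 (log2 fold change -0.12). PSMB6, the caspase-like site, read 205, 231 and 187 CPM in the controls and 176, 208 and 160 CPM with SRPK2 (log2 fold change -0.20). PSMB7, the trypsin-like site, read 403, 436 and 373 CPM in the controls and 360, 406 and 325 CPM with SRPK2 (log2 fold change -0.15). Groups overlapped for all 3, through SRPK2 replicate 2, and their edgeR adjusted p values were 0.293 to 0.342.

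Ratios within a library need no scaling and compare each inducible subunit directly with the one it replaces. The log2 ratio of PSMB8 to PSMB5 reads was -0.77, -0.78 and -0.77 in the controls and -0.86, -0.84 and -0.86 with SRPK2. The groups did not overlap, and the difference was -0.08. PSMB9 to PSMB6 went the other way, at -2.48, -2.44 and -2.55 in the controls and -2.39, -2.44 and -2.38 with SRPK2, a difference of 0.09, where the groups did not overlap but the second replicates of both were nearly equal.

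PSMB10 to PSMB7 was at -5.27, -5.40 and -5.36 in the controls and -5.15, -5.19 and -4.96 with SRPK2, a difference of 0.24. PSME2 to PSME3 was at -0.32, -0.13 and -0.31 in the controls and -0.40, -0.16 and -0.50 with SRPK2, a difference of -0.10 with overlapping groups. Exact two-sided permutation tests gave p = 0.1 for the first 3 ratios, the smallest that 3 against 3 libraries allow, and 0.4 for the fourth. Adjusted over the 4 ratios these exact values were 0.133, 0.133, 0.133 and 0.4. The 3 inducible catalytic subunits thus had differences of both signs relative to their counterparts, and none of the tests passed. With the length correction the difference was -0.13 for PSMB8 to PSMB5, 0.04 for PSMB9 to PSMB6 (exact permutation p = 0.6) and -0.07 for PSME2 to PSME3. The PSME2 to PSME3 difference was -0.04 without control replicate 2, -0.03 without SRPK2 replicate 3 and -0.19 without SRPK2 replicate 2. In FPKM terms the share of PSMB8 in its pair was 20.5% to 20.7% in the controls and 19.7% to 19.9% with SRPK2.

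**Figure D3:**
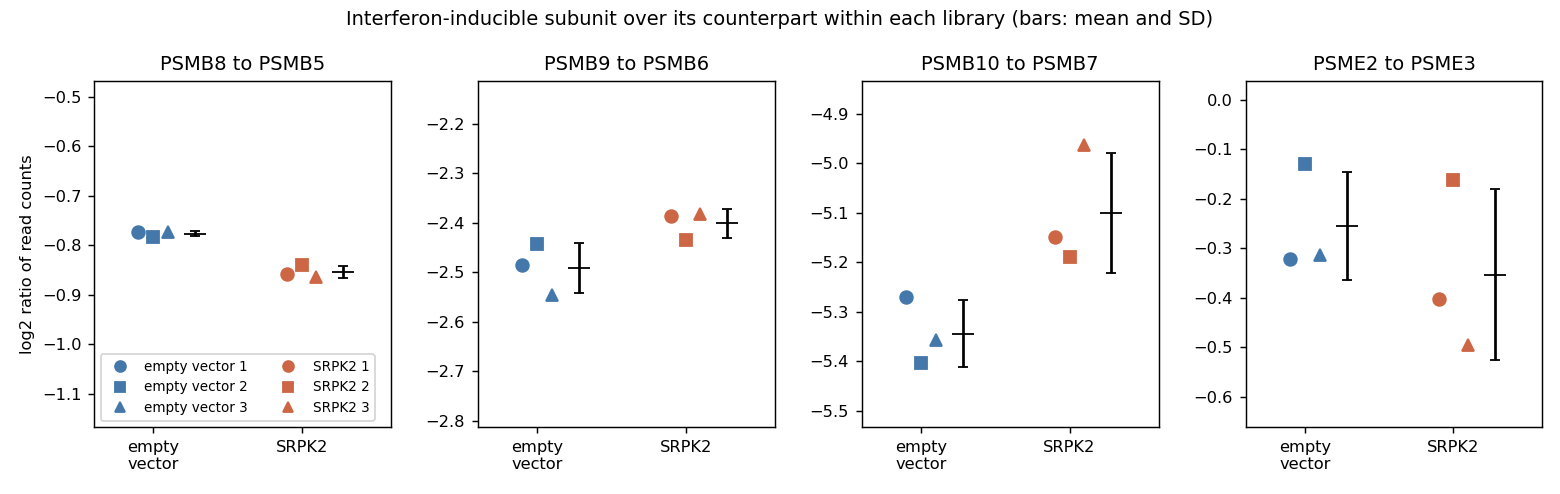
log2 ratio of read counts of 4 interferon-inducible genes to their counterparts in each library (blue, empty vector; orange, SRPK2), with the mean and SD of each group of 3; all panels span the same range of 0.7. PSMB8 to PSMB5 lies lower with SRPK2, PSMB9 to PSMB6 and PSMB10 to PSMB7 lie higher, and PSME2 to PSME3 overlaps.

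By role, the core genes had lower values than the cap genes. The median log2 fold change was -0.16 over the 14 constitutive core subunits, of which 13 were below 0, and -0.08 over the 17 cap subunits, of which 15 were. After the length correction these medians were -0.10 and -0.07. Values of the 6 ATPases lay between -0.09 and -0.06. The non-ATPase subunits ranged from -0.13 for the lid subunits PSMD8 and PSMD6 to 0.02 for PSMD11, also of the lid.

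PSMD11 read 235, 228 and 232 CPM in the controls and 234, 234 and 236 CPM with SRPK2, so that the libraries differed little in either group (edgeR adjusted p = 0.860). The activators outside the inducible set were likewise level: PSME3 read 266, 263 and 250 CPM against 256, 252 and 249 CPM, and PSME4 read 87.5, 86.5 and 88.3 CPM against 87.3, 86.2 and 90.8 CPM. Their log2 fold changes were -0.04 and 0.01, and that of the inhibitor PSMF1 (PI31) was -0.03. The sign of the values of PSMD11 and PSME4 turned under the length correction, to -0.01 and -0.04.

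The core's assembly chaperones had the lowest median of the roles. PSMG1 and PSMG2 form a heterodimer that guides the alpha ring, and PSMG3 and PSMG4 form another. PSMG1 read 95.2, 104 and 94.5 CPM in the controls and 81.0, 94.0 and 76.3 CPM with SRPK2, with no overlap between the groups (log2 fold change -0.23, SE 0.07, edgeR adjusted p = 0.191).

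PSMG3 read 48, 48.9 and 45.6 CPM in the controls and 42.2, 43.4 and 37.7 CPM with SRPK2, again with no overlap (log2 fold change -0.21, SE 0.06, edgeR adjusted p = 0.165). PSMG4 read 27.8, 32.3 and 28 CPM in the controls and 24.3, 28.4 and 23.0 CPM with SRPK2, and its groups overlapped through SRPK2 replicate 2 (log2 fold change -0.22, SE 0.08, edgeR adjusted p = 0.228). PSMG2 had a value of -0.13. All 4 were lower at an unadjusted p under 0.05 in the edgeR test, as were 8.1% of all tested genes (17.2% in either direction). The median of the 4 was -0.21, and -0.14 after the length correction. The cap's chaperones PSMD5, PSMD9 and PSMD10 had values of -0.00, -0.14 and -0.15.

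Of the genes that share only the symbol pattern, PSME3IP1, which binds PSME3 in the nucleus, read 88.5, 84.8 and 83.2 CPM in the controls and 90.2, 85.5 and 81.9 CPM with SRPK2. Its log2 fold change was 0.01 and turned sign under size factors from DESeq2 (RLE). PSMC3IP, a meiotic recombination factor, had a value of -0.08.

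The number of members past the threshold depended on SRPK2 replicate 2, on the filter and on whether the fit held a term for the replicate number. Counts with that term are given at the end. Without SRPK2 replicate 2, 12 members fell: PSMA1, PSMA7, PSMB1, PSMB3, PSMB4, PSMB6, PSMB8, PSMD10, PSME1, PSMG1, PSMG3 and PSMG4, where 5.08% of all tested genes fell. The lowest value was then that of PSMG1, at -0.32 (SE 0.06, edgeR adjusted p = 0.0145), and PSMB8 had -0.26. Without any other library the count stayed at 0. With no filter on low counts 5 members fell (PSMB3, PSMB6, PSMB8, PSMG1 and PSMG3), where 2.04% of genes did.

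Most members shared their highest and their lowest library. As deviations from each gene's mean log2 CPM, the median member stood at 0.04, 0.12 and -0.01 in the controls and at -0.07, 0.05 and -0.14 with SRPK2. Control replicate 2 was the highest library for 38 of 48 members, and SRPK2 replicate 3 the lowest for 37. The libraries between these differed in order from role to role. The median of the 5 inducible genes had the same extremes, at 0.05, 0.17 and -0.04 in the controls and -0.09, 0.12 and -0.21 with SRPK2.

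The 79 tested ribosomal protein genes had the same highest and lowest libraries, further apart, at 0.11, 0.32 and -0.03 in the controls and -0.15, 0.10 and -0.36 with SRPK2. Their median log2 fold change was -0.26, and 0 of 79 passed the threshold in the edgeR test. At an unadjusted p under 0.05 in that test, 52 were lower, as were 8.1% of all tested genes (17.2% in either direction). PSME3 and PSME4, PSMF1 and the 2 genes that share only the symbol pattern did not have both of these extremes as groups. Whether the members' values share a source with those of the ribosomal protein genes was not tested.

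**Figure D4:**
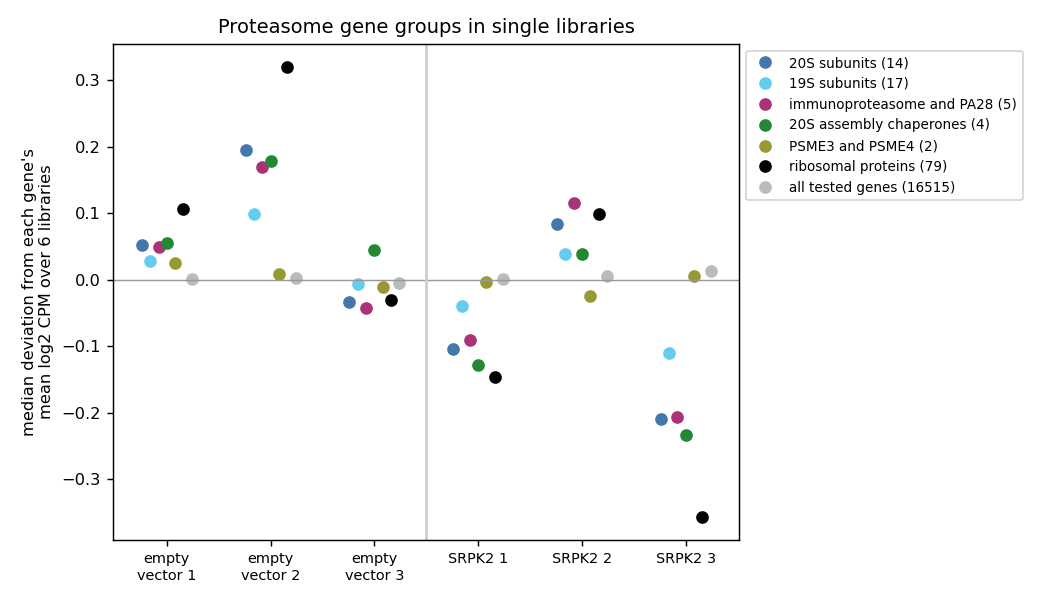
Median deviation from each gene's mean log2 CPM over the 6 libraries, for proteasome gene groups, ribosomal protein genes and all tested genes (number of genes in the key). The plotted proteasome groups other than PSME3 and PSME4 are highest in control replicate 2 and lowest in SRPK2 replicate 3, as are ribosomal protein genes, and all tested genes stay near 0.

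Gene length moved with these values. Across 47 members, which are not independent replicates, the log2 fold change correlated with log length (Pearson r = 0.41, Spearman rho = 0.47), and over all 13116 tested genes with a length likewise (0.29 and 0.36). The 24 shorter members had a median of -0.14 and the 23 longer ones -0.07. After the length correction the correlation over members was -0.28 (rho = -0.20), 43 of 47 members were still below 0, and 0 were past the threshold in the edgeR test, where 0.793% of genes were. The part of length in the members' values was not tested further.

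For 4 members, the count table holds more reads under an overlapping gene than under the member. PSMA1, PSMA2, PSMA6 and PSMB10 share exonic bases on the same strand with a readthrough gene, an annotated transcript that joins 2 neighbouring genes, and the count table lists that gene separately. The shared bases were 24.7%, 14.6%, 14.1% and 34.8% of the merged exons of the 4 genes in GENCODE 29. PSMA2, an alpha subunit that every core needs, had only 0.683, 0.739 and 0.792 CPM in the controls and 0.894, 0.829 and 0.965 CPM with SRPK2, and per length it was the lowest of all members. Its readthrough gene RP11-111K18.1 held 259, 301 and 260 CPM in the controls and 234, 271 and 224 CPM with SRPK2. Per length that gene had a mean of 59.7 FPKM, close to the alpha subunit PSMA3 at 64.3 FPKM.

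PSMA2 held 0.317% of the reads summed over both genes, PSMA6 1.88%, PSMA1 32.8% and PSMB10 35.8%. The readthrough genes were RP11-561B11.2 for PSMA6 with 60315 reads over the 6 libraries, RP11-140L24.4 for PSMA1 with 33850 and CTC-479C5.12 for PSMB10 with 3832. The counts do not tell reads of PSMA2 from reads of the joined transcript. For PSMA1, PSMA2, PSMA6 and PSMB10 the shared bases numbered 814, 781, 919 and 644. The lengths of their readthrough genes from reads and FPKM were 1347, 4320, 4256 and 6266 bases. Reads of a readthrough gene can therefore also come from exons outside the member. PSMD9 also shares exons with a readthrough gene, RP11-87C12.2, which had only 26 reads over the 6 libraries. Copies elsewhere in the genome took few reads: of 18 listed pseudogenes of members, none had more than 51 reads in a library.

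With the readthrough gene's reads added, the log2 fold change of PSMA2 turned from 0.28 (SE 0.22, edgeR adjusted p = 0.509) to -0.17 (SE 0.08, edgeR adjusted p = 0.291), among the values of the other alpha subunits. PSMB10 went from 0.09 to -0.02, with 30.2, 29.6 and 26.7 CPM in the controls and 27.6, 31.7 and 26.2 CPM with SRPK2. PSMA1 went from -0.19 to -0.10 and PSMA6 from -0.11 to -0.15. The difference in the log2 ratio of PSMB10 to PSMB7 was 0.14 in place of 0.24. With the sums, 44 of 48 members were below 0 and 0 were past the threshold, where 0.46% of genes were.

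**Figure D5:**
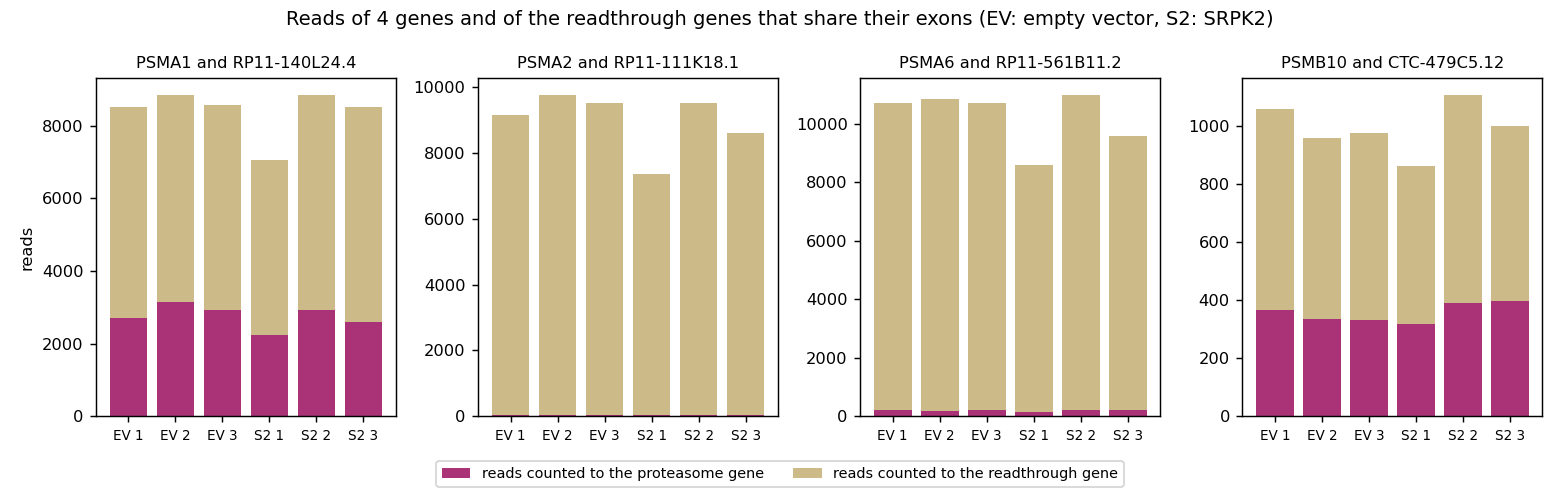
Reads per library counted to PSMA1, PSMA2, PSMA6 and PSMB10 (purple) and to the readthrough gene that shares exons with each (tan), stacked, for the 3 empty-vector (EV) and 3 SRPK2 (S2) libraries. For PSMA2 and PSMA6 nearly all reads stand under the readthrough gene, and for PSMA1 and PSMB10 about 32.8% and 35.8% of the summed reads stand under the proteasome gene.

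Genes that work with the proteasome were also without a call. Of 22 proteasome-associated factors, such as assembly factors, ubiquitin receptors and VCP cofactors, 0 passed in the edgeR test (3 at an unadjusted p under 0.05), with a median log2 fold change of -0.06. For this and the following lists, the share of all tested genes at that unadjusted p was 17.2%. The largest absolute values were those of ZFAND2A (AIRAP, a stress-induced partner of the cap) at -0.19, UFD1, a VCP cofactor, at -0.19, POMP, the maturation factor of the core, at -0.16, and PAAF1, which binds the ATPases, at -0.13.

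Of 9 regulators of proteasome genes, 0 passed (3 at an unadjusted p under 0.05), with a median of 0.02. BACH1, a repressor at antioxidant response elements, had 0.17 and NFE2L1 (NRF1), which raises proteasome genes when the protease is impaired, 0.14. KEAP1, the adaptor that marks NFE2L2 for degradation, had -0.11 and the partner MAFG 0.05. Of 7 tested ubiquitin and ubiquitin-activating enzyme genes 0 passed (2 at an unadjusted p under 0.05), with a median of -0.04. RPS27A, a fusion of ubiquitin with a ribosomal protein, had -0.30, the polyubiquitin gene UBB had -0.14, and UBA7, the activating enzyme of ISG15, had 0.24.

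The partners of the immunoproteasome in antigen presentation had medians above 0. Of 16 antigen processing genes 0 passed in the edgeR test (3 at an unadjusted p under 0.05), with a median of 0.07, and groups did not overlap and were higher with SRPK2 for 5. The peptide editor TAPBPL had 0.31, and the peptide-trimming enzymes ERAP1 and ERAP2 0.18 and 0.16. Of 13 factors through which interferon reaches these genes, 0 passed (3 at an unadjusted p under 0.05), with a median of 0.11 and 5 whose groups did not overlap and were higher with SRPK2. The share of all tested genes in the last class was 11.5%.

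STAT2, part of the complex that binds ISREs, read 56.6 to 60.9 CPM in the controls and 65.2 to 74.0 CPM with SRPK2, with no overlap (log2 fold change 0.24, SE 0.06, edgeR adjusted p = 0.120). IRF1, an activator of PSMB9, read 81.7, 83.0 and 80.3 CPM in the controls and 92.0, 92.0 and 87.9 CPM with SRPK2 (log2 fold change 0.15, SE 0.05, edgeR adjusted p = 0.191). IRF9 had 0.35 from 19 to 35 reads in a library, and JAK2 had 0.16. The difference between these lists and the inducible proteasome genes was not tested.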

How the data were processed

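Gene tables were used in which the authors deposited whole-number read counts per gene (29710 genes) and FPKM per gene (29256 genes). The submitters' processing notes name bcl2fastq, FastQC, HISAT2 and the build GRCh38. No counter, strand option or annotation version is stated in the sources used here. Libraries were grouped by their titles.

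The test of the counts was that of edgeR 4.0.16 (R 4.3.3, TMM, filterByExpr, quasi-likelihood F test, two-sided, group as the only term), and p-values were adjusted by Benjamini-Hochberg over 16515 genes, with a threshold of 0.05. An SE is the size of a log2 fold change divided by the root of its F statistic. DESeq2 1.42.0 and limma 3.58.1 gave alternatives, some on log2(FPKM + 1) or log2(FPKM + 0.1), where fold changes of low genes are understated. The length correction was a loess fit of each library (span 0.3). Deviations use log2 CPM with a prior count of 2. The script was tested on simulated counts.

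The members, gene lists, tests and the rule for named genes were chosen with earlier results of these data known. The rule took the inducible subunits and their counterparts, called members, the 3 highest and 3 lowest log2 fold changes among the others, the extremes of abundance, and up to 4 genes of each partner list. Results of a few genes so named are not reported here. The readthrough sums and their settings were added after the data were seen. Replicate pairs of a group had chi-square values of 4.78 to 16.7 for each degree of freedom, and none was treated as copies. The labels call replicates biological without saying how cultures were separated, so p-values measure the spread between these libraries.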

Additional observations from a re-analysis of the deposited data

How the results depend on the processing

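Depth did not limit most members, which had 9.10 CPM or more in every library apart from PSMA2 and PSMA6, whereas PSMA2 rested on 24 to 37 reads in a library. The number of genes past the threshold was 75. It was 997 with no filter on low counts, 133 with DESeq2, 18 with limma on log2(FPKM + 1) with no filter, and 27 to 1403 when 1 library was left out. The number of members past it was 0, and 5 with no filter and 0 to 12 when 1 library was left out. The high ends, 1403 and 12, were both without SRPK2 replicate 2.

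The replicate number as a block gave 3899 genes (23.6% of tested genes) and 32 members. All 32 were lower with SRPK2, where 13% of tested genes were called lower. The block with the length correction gave 3230 genes (24.6%) and 27 members. All 27 were lower with SRPK2, where 13.9% of genes were called lower. The numbers were not taken to pair the libraries, since the labels do not say that a number marks a shared batch and 1 same-numbered correlation was weak. Same-numbered libraries had correlated deviations of 0.08, 0.23 and 0.17, and differently numbered ones of the 2 groups -0.17 to -5.48e-05. Whether the numbers mark pairs is not settled here. Every library correlated best with its own number, as a hint from the data.

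Of 318 values of the 17 named members under alternatives, 276 kept their direction and side of the threshold, 30 crossed it and 12 turned sign. PSME3IP1 turned to -0.0010 with RLE size factors, -0.0017 with DESeq2, and -0.0030, -0.014 and -0.035 without control replicate 2, control replicate 3 or SRPK2 replicate 1, within a range of -0.035 to 0.036 when 1 library was left out. PSME4 had -0.038 with the length correction, -0.038 with the block as well, and -0.015 to 0.027 when 1 library was left out (lowest without SRPK2 replicate 3). PSMD11 had -0.011 under both corrections. PSMA2 had -0.17 and PSMB10 -0.015 with readthrough reads added, by construction of the sums. The cause of the other sign changes was not tested. The medians stayed below 0 under every setting run, from -0.14 to -0.05 for constitutive subunits and from -0.21 to -0.06 for inducible ones. Between 39 and 44 members lay below 0. The 4 ratio differences kept their sign under every setting run, and with the block their exact p was 0.25, the smallest that 3 pairs allow.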
